A study of Mus musculus with 6 samples.

Results

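Genes whose symbols begin with Slc1a, Slc3a, Slc7a, Slc36a, Slc38a or Slc43a were taken from the protein-coding entries of the gene table, which gave 43 members among 54532 entries. Of these, 42 encode amino acid carriers or their close relatives. The other one, Slc7a6os, matches by its name, which places it beside Slc7a6 on the opposite strand, and is not a carrier. RNA was sequenced from RAW264.7 cells, a mouse macrophage line established from a virus-induced tumour, after 3 d of culture, with 3 libraries in each of 2 groups. Gel/S, the control, was static culture with GelMA, a gelatin hydrogel carrying methacryloyl groups. C/D was the dynamic group, in which the cells were kept with GelMA/PEDOT:PSS+PLLA/PDA (a composite in which the conducting polymer PEDOT:PSS and PLLA/PDA are joined to GelMA) and ultrasound of 48 kHz was applied for 5 min. Material and ultrasound changed together and cannot be told apart. The gene table names its libraries GEL and US, and US was taken to stand for ultrasound, hence for C/D; every direction below rests on that reading. The labels do not say that replicates came from separate cultures, so the p-values rest on a spread between samples that may be merely technical.

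Amino acids cross the plasma and lysosomal membranes through carriers of several unrelated families. Members of SLC7 include exchangers whose light chain must pair through a disulphide bond with a glycoprotein heavy chain of SLC3, and free-standing carriers of cationic amino acids. SLC1 holds sodium-coupled carriers of glutamate and of small neutral amino acids, SLC38 the sodium-coupled glutamine and alanine carriers, SLC36 proton-coupled carriers, and SLC43 facilitative carriers. In macrophages these proteins supply glutamine, arginine, cystine and leucine, and carriers of the lysosomal membrane also feed the mTORC1 pathway, which senses amino acids.

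Levels are the authors' FPKM (fragments per kilobase of gene, scaled for the size of the library), and means are given ± SD over n = 3 libraries. A gene was tested when its mean over the 6 libraries reached 1 FPKM, which left 11708 genes, 20 of them members (19 carriers and Slc7a6os). The test was the edgeR quasi-likelihood test on the deposited counts with Benjamini-Hochberg adjustment over all 11708 genes and a threshold of 0.05, and log2 fold changes are C/D over Gel/S. The lowest tested member, Slc7a4, had a mean of 1.93 FPKM and the highest untested one, Slc7a13, a mean of 0.38 FPKM, so none lay close to the minimum. The smallest count of a tested member in any library was 105.

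The cells of C/D held less mRNA for the glutamine carrier Slc1a5 and for the leucine carrier Slc7a5 than those of Gel/S, and more for the lysosomal carriers Slc36a1 and Slc38a9. The Slc38a9 call was the least firm and was lost in 7 of 14 alternative fits. Of the 20 tested members, 5 fell (Slc7a5, Slc1a5, Slc7a1, Slc7a8 and Slc38a10), 2 rose (Slc36a1 and Slc38a9) and 13 did not pass. The called share was 35.0%, where 27.0% of all tested genes were called, 13.9% as fallen and 13.1% as risen, so the number of calls was near the background. The median log2 fold change of the 20 members was −0.01, against 0.01 for all tested genes, and the median absolute value was 0.26 against 0.24. For 11 of the 20 members (55.0%) all FPKM of a group lay on one side of the other group, against 46.2% of all tested genes. With limma on log2(TPM + 1), TPM being FPKM rescaled to the same sum in each library, 0 members rose and 4 fell; rises were then 29.5% of all calls, against 48.4% in the edgeR fit, and the median of all tested genes was −0.12. Leaving out 1 library changed the counts too: 4 members rose without Gel/S 1, 1 rose without Gel/S 3, C/D 1 or, in turn, C/D 2, and leaving out C/D 2 gave 3 fallen members. In the authors' deposited table the same 7 members had an adjusted p under 0.05, with Slc38a9 only just under it (0.0493 in the authors' comparison). Since RNA was measured in bulk, fewer cells expressing a gene and less RNA per cell cannot be told apart.

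**Figure D1:**
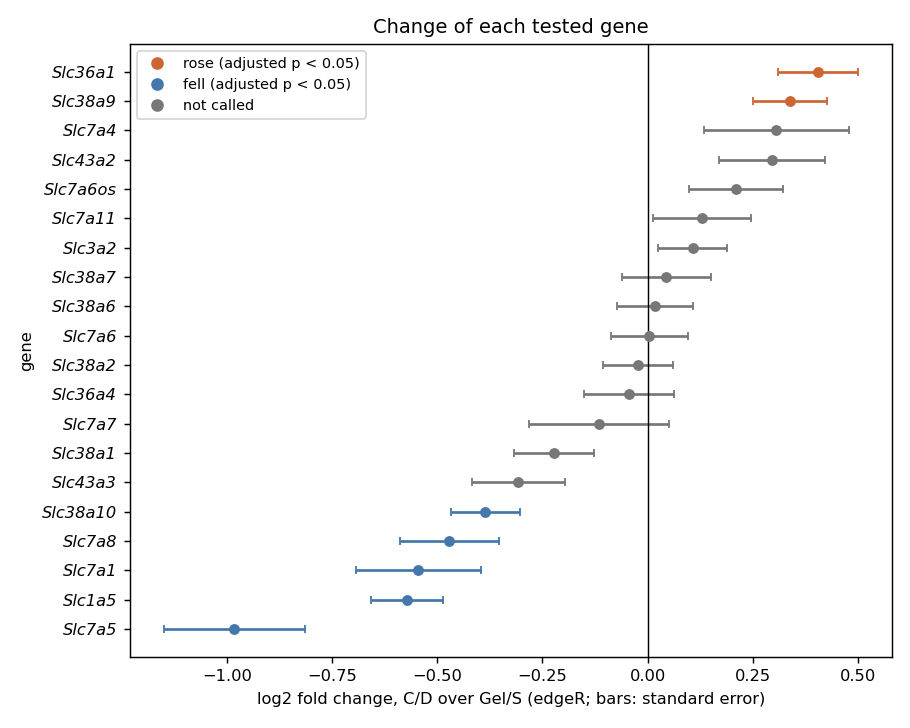
Log2 fold change of each of the 20 tested genes in C/D over Gel/S (x axis), with bars for the standard error, sorted by value (y axis). Slc7a5 lies farthest to the left at −0.98, and only Slc38a9 and Slc36a1 passed the threshold on the right.

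Libraries held between 12818831 (C/D 1) and 16525699 (Gel/S 2) counts. The first principal component of log2 CPM (55.8% of the variance) separated the groups, and Gel/S 1 stood farthest out at −34.6, with −11.3 and −17.7 for the other Gel/S libraries and 18.2 to 25.6 for C/D. Mitochondrial transcripts took 5.59% to 9.02% of the counts in Gel/S and 9.17% to 10.4% in C/D, and the part of this in the results below was not tested. All 8 macrophage markers looked at were present, with means from 11.9 FPKM, and their summed level was 13500 to 14100 FPKM in Gel/S and 10900 to 11100 FPKM in C/D. Most of that sum was Lyz2 (10200 ± 564 and 8020 ± 88.7 FPKM, log2 fold change −0.30, edgeR adjusted p = 0.0649). Of the 8, Csf1r fell (550 ± 58.4 to 382 ± 12.9 FPKM, log2 fold change −0.48, edgeR adjusted p = 0.00736) and the other 7 did not pass. Besides Lyz2, these were Adgre1 (−0.31), Cd14 (−0.29), Ptprc (−0.21), Spi1 (−0.15), Cd68 (0.02) and Itgam (0.18). The median log2 fold change of the list was −0.25. Marker lists of fibroblasts (6 genes, 3 of them at 0 in every library), T or B cells (5 genes) and endothelial cells (4 genes) summed to at most 0.923 FPKM in any library, and no gene of these lists was tested. The osteoblast list of 6 genes, with 2 at 0 throughout, summed to 1.42 to 2.13 FPKM in Gel/S and 1.95 to 4.22 FPKM in C/D. Osteoclast markers, which RAW264.7 cells can express, summed to 47.3 to 49.3 FPKM in Gel/S and 36.6 to 42.1 FPKM in C/D. Of these 6 genes 3 were tested: Dcstamp fell, Acp5 rose and Ocstamp did not pass (−0.049, edgeR adjusted p = 0.836). Ctsk and Mmp9 lay under the minimum for testing, and Calcr was at 0. The part of these marker differences in the results below was not tested.

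Levels spanned a wide range, and a few genes carried most of the carrier mRNA. Of the 20 tested members, 8 had a mean of at least 10 FPKM, 9 lay between 4 and 8 FPKM and 3 were lower. The heavy chains of SLC3, which do not transport by themselves, are counted here among the 42 carriers. Slc1a5, Slc3a2 and Slc38a2 together made up 53.0 ± 2.88% of the summed FPKM of all 42 carriers in Gel/S and 51.0 ± 1.00% in C/D. That sum was 315, 282 and 279 FPKM in Gel/S 1 to 3 and 262, 258 and 255 FPKM in C/D 1 to 3, so it was lower in every C/D library, by 11.7% on the means. With 1 library left out the change was between −13.6% (without Gel/S 3) and −8.06% (without Gel/S 1, the highest library), and on TPM it was −17.5%. Slc1a5 had the largest difference in FPKM of any member, from a mean of 68.4 in Gel/S to 44.7 in C/D. The median log2 fold change of the tested members was −0.01, so the lower sum was not a fall shared by all carriers. SLC38 genes held the largest part of the sum in each library (28.2 ± 0.802% of Gel/S and 28.5 ± 0.741% of C/D). The part of SLC1 was 23.5 ± 0.918% in Gel/S and 17.3 ± 0.33% in C/D. The part of SLC3 was 16.9 ± 1.6% and 19.9 ± 0.605%, that of SLC7 15.3 ± 1.23% and 14.4 ± 0.512%, that of SLC43 9.83 ± 1.06% and 12.4 ± 0.724%, and that of SLC36 6.28 ± 0.525% and 7.53 ± 0.180%. Shares of SLC1, SLC3, SLC36 and SLC43 did not overlap between the groups, and those of SLC7 and SLC38 did. Parts of a sum depend on each other, so a lower part of SLC1 makes the other parts larger. These parts are descriptions of FPKM sums, with no test.

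**Figure D2:**
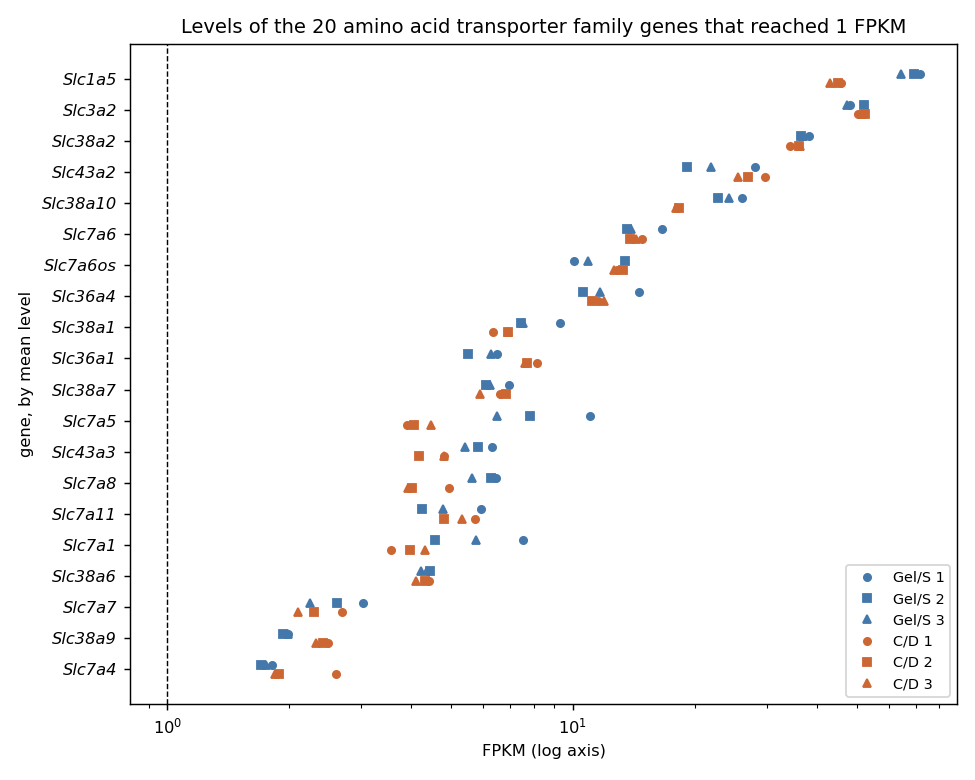
FPKM in each library (x axis, log scale) of the 20 tested genes (y axis, by mean level), with blue for Gel/S, orange for C/D, one marker shape per replicate number and a dashed line at the minimum of 1 FPKM. Slc1a5 has the highest mean over the 6 libraries and Slc7a4 the lowest, Slc3a2 lies above Slc1a5 in each C/D library, and the Gel/S points of Slc1a5, Slc7a5 and Slc38a10 all lie to the right of the C/D points.

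Slc1a5 was the only SLC1 gene above the minimum of 1 FPKM, and it fell. It encodes ASCT2, a sodium-dependent exchanger that brings glutamine into cells (ENSMUSG00000001918, chromosome 7, 16781340 to 16798274, GRCm38). Its level was 71.6, 69.1 and 64.4 FPKM in Gel/S 1 to 3 and 45.8, 45.0 and 43.1 FPKM in C/D 1 to 3. All Gel/S libraries were above all C/D libraries, and the values within a group were close. The log2 fold change was −0.57 (SE 0.0846, edgeR adjusted p = 0.00101), a drop to 0.673 of the control level, and the call held in each of the 14 alternative fits (log2 fold change −0.70 to −0.54). The counts behind it were 4775, 4654 and 4173 in Gel/S and 2488, 3022 and 2703 in C/D. Slc1a4, the related carrier of serine and alanine, had 44 counts over the 6 libraries, 22 of them in Gel/S 1, and a mean of 0.12 FPKM. The glutamate carriers Slc1a1, Slc1a2, Slc1a3, Slc1a6 and Slc1a7 had no count in any library. A count of 0 over the 6 libraries together allows up to 0.0328 CPM (3 counts of all counts), a limit that covers counting error only.

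The heavy chain Slc3a2 did not pass the test. SLC3A2, also called CD98 or 4F2hc, carries its light chains to the plasma membrane and does not transport by itself. Its level was 48.1, 52.1 and 47.4 FPKM in Gel/S 1 to 3 and 50.3, 52.6 and 51.5 FPKM in C/D 1 to 3. The groups overlapped, at a log2 fold change equal to 0.11 (SE 0.0831, edgeR adjusted p = 0.353), and the sign turned on TPM (−0.03). The other heavy chain, Slc3a1, which pairs with the cystine carrier Slc7a9 in kidney and gut, had 7 counts in all, and Slc7a9 had none.

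Of the 5 tested light chains of SLC3A2, Slc7a5 and Slc7a8 fell, and Slc7a6, Slc7a7 and Slc7a11 did not pass. Slc7a5 encodes LAT1, an exchanger that imports leucine and other large neutral amino acids (ENSMUSG00000040010, chromosome 8, 121881150 to 121907694, GRCm38). Its level was 11.02, 7.82 and 6.49 FPKM in Gel/S 1 to 3 and 3.90, 4.06 and 4.46 FPKM in C/D 1 to 3. The Gel/S libraries were spread widely, with Gel/S 1 the highest, and the lowest of them was still above every C/D library. The log2 fold change was −0.98 (SE 0.167, edgeR adjusted p = 0.00199), or 1.98-fold lower in C/D, the steepest among the tested members. The call held in all 14 alternative fits, where the log2 fold change was between −1.14 and −0.75, the smallest being without Gel/S 1. Gm20388, a long protein-coding entry on the other strand that spans the same stretch of the genome, had no count.

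Slc7a8 encodes LAT2, which exchanges small and large neutral amino acids (ENSMUSG00000022180, chromosome 14, 54722209 to 54781946, GRCm38). Its level was 6.45, 6.27 and 5.64 FPKM in Gel/S 1 to 3 and 4.95, 4.01 and 3.92 FPKM in C/D 1 to 3. The groups did not overlap, and C/D 1 lay nearest to Gel/S. The log2 fold change was −0.47 (SE 0.118, edgeR adjusted p = 0.0132), and the call was lost without C/D 2 (adjusted p = 0.066) or without C/D 3 (adjusted p = 0.0625).

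Slc7a6 encodes y+LAT2, which exports arginine in exchange for glutamine and sodium. It was the most abundant light chain in each library, at 16.6, 13.6 and 13.9 FPKM in Gel/S 1 to 3 and 14.8, 13.8 and 14.3 FPKM in C/D 1 to 3. The values overlapped and the log2 fold change was 0.00 (SE 0.0919, edgeR adjusted p = 0.977), with a sign that turned in 8 of 14 alternatives. Slc7a7, which encodes the closely related y+LAT1, had 2.64 ± 0.394 FPKM in Gel/S and 2.37 ± 0.297 FPKM in C/D (log2 fold change −0.11, edgeR adjusted p = 0.628). Slc7a7 overlaps Oxa1l, a gene of 28.3 FPKM on the opposite strand. The sources used here do not say whether counting used the strand, and without it reads of the shared stretch cannot be told apart. Slc7a10, another light chain of SLC3A2, had no count.

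Slc7a11 encodes xCT, which imports cystine in exchange for glutamate and so supplies cysteine for glutathione. Its level was 5.94, 4.25 and 4.79 FPKM in Gel/S 1 to 3 and 5.74, 4.82 and 5.34 FPKM in C/D 1 to 3. The groups overlapped through Gel/S 1, the highest of the 6 libraries, and the log2 fold change was 0.13 (SE 0.117, edgeR adjusted p = 0.425). Without Gel/S 1 it was 0.26 (adjusted p = 0.0424). The promoter of Slc7a11 is shown because it holds 2 copies of the letters TGATGNAA, an element that binds ATF4 with C/EBP partners during amino acid shortage, and the gene is a classical ATF4 target. The window runs from 250 bases before to 50 after the RefSeq transcription start (GRCm38.p6, chr3:50443564-50443863, minus strand), is printed 5′ to 3′, and has the matches on either strand in capitals.
Slc7a11 promoter: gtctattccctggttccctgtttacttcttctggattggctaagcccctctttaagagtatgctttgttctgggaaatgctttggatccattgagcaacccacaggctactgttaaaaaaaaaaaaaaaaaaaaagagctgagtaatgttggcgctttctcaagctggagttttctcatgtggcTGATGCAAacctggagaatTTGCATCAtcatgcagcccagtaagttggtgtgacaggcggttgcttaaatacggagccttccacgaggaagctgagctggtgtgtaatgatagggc

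The matches begin 66 and 47 bases before the start site, the first on the printed strand and the second on the other one, and they do not overlap. These letters occur on either strand in 3.97% of the 32851 RefSeq promoter windows of the same length. Of the tested members, 15 had such windows, 22 in all, and Slc7a11 and Slc7a7 were the ones with a match. A match of letters is a description and not a binding site.

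The balance of the light chains differed between the groups in FPKM. Their summed level was 43, 34.6 and 33.1 FPKM in Gel/S 1 to 3 and 32.1, 29.0 and 30.2 FPKM in C/D 1 to 3. Slc7a5 made up 22.6 ± 3.00% of it in Gel/S and 13.6 ± 1.35% in C/D, and Slc7a8 16.7 ± 1.59% and 14.1 ± 1.24%. The part of Slc7a6 was 40.0 ± 1.86% in Gel/S and 47.1 ± 0.854% in C/D, that of Slc7a11 13.5 ± 1.10% and 17.4 ± 0.699%, and that of Slc7a7 7.14 ± 0.392% and 7.77 ± 0.722%. The ratio of Slc3a2 to its summed light chains was 1.12, 1.51 and 1.43 in Gel/S 1 to 3 and 1.57, 1.81 and 1.71 in C/D 1 to 3. It was above 1 in each library and higher in each C/D library, with Gel/S 1 the lowest and Gel/S 2 close to C/D 1. These ratios were not tested. By themselves, Slc7a6 (log2 fold change 0.00), Slc7a11 (0.13) and Slc3a2 (0.11) did not pass. Parts of a sum depend on each other, so lower Slc7a5 and Slc7a8 make the other parts and the ratio larger.

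**Figure D3:**
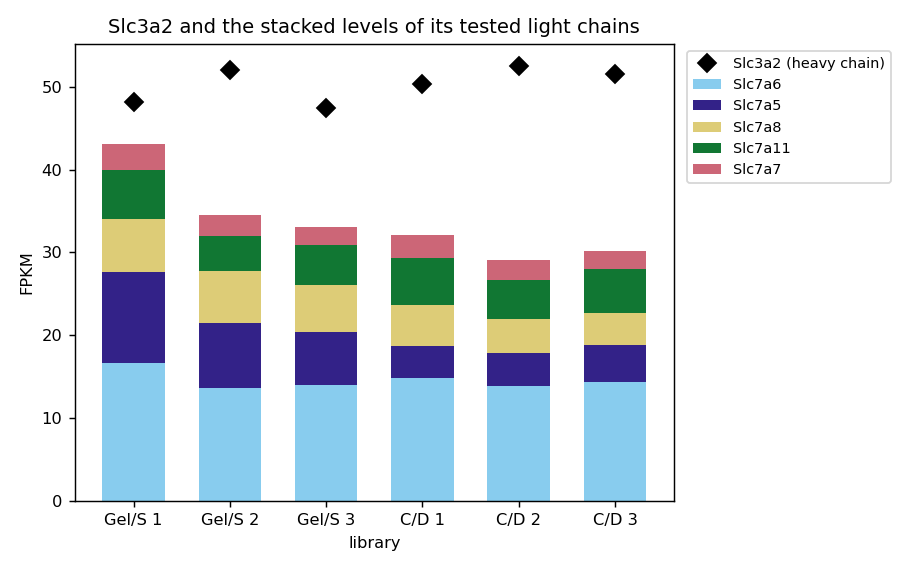
FPKM (y axis) of the 5 tested light chains of SLC3A2 stacked for each library (x axis), with a black diamond for the heavy chain Slc3a2. The diamond lies above the stack in each of the 6 libraries, and the dark band of Slc7a5 is thinner in the 3 C/D libraries.

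Among the cationic amino acid carriers, Slc7a1 fell. It encodes CAT1, a widespread carrier of arginine, lysine and ornithine (ENSMUSG00000041313, chromosome 5, 148327410 to 148399904, GRCm38). Its level was 7.53, 4.57 and 5.78 FPKM in Gel/S 1 to 3 and 3.57, 3.97 and 4.32 FPKM in C/D 1 to 3. Gel/S 1 was the highest library, and Gel/S 2 lay only just above C/D 3. The log2 fold change was −0.55 (SE 0.148, edgeR adjusted p = 0.019). The call was lost in 5 of 14 alternatives: without C/D 1 (−0.48, adjusted p = 0.0882), without C/D 2 (−0.55, adjusted p = 0.0653), and with limma on log2(FPKM + 1) (−0.47, adjusted p = 0.0647), log2(FPKM + 0.1) (−0.56, adjusted p = 0.0621) and log2(TPM + 1) (−0.61, adjusted p = 0.0764), while without Gel/S 1 the value was −0.35 and still passed (adjusted p = 0.0226).

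Slc7a2, which encodes CAT2, the arginine carrier that macrophages induce on activation, had 1 count in the 6 libraries. Slc7a3, the carrier CAT3 known from brain, had 13 counts in all. Slc7a4, a relative of this group without clear transport activity, had 1.75 ± 0.0534 FPKM in Gel/S and 2.11 ± 0.432 FPKM in C/D. Its groups did not overlap, C/D 1 was the highest library at 2.61 FPKM, and the log2 fold change of 0.31 did not pass (SE 0.172, edgeR adjusted p = 0.201). Slc7a14, a lysosomal member known from brain and retina, had 44 counts in all. Of the remaining SLC7 genes, Slc7a13 had 74 counts and Slc7a12 and Slc7a15 had none. Slc7a6os, whose listed interval does not overlap that of Slc7a6, had 10.1, 13.4 and 10.9 FPKM in Gel/S 1 to 3 and 12.8, 13.3 and 12.6 FPKM in C/D 1 to 3. Gel/S 2 was the highest of these, and the log2 fold change was 0.21 (SE 0.112, edgeR adjusted p = 0.177), or 0.35 without Gel/S 2 (adjusted p = 0.0136).

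Both members that rose encode proteins of the lysosomal membrane, but a rise was not shared by all lysosomal carriers. Of other tested lysosomal carriers, Slc38a7 did not pass (0.045) and Slc15a3, outside the 6 families, fell (−0.58). Also outside the 6 families, the lysosomal carriers Pqlc2 (0.215), Slc17a5 (0.208), Ctns (0.013), Slc15a4 (−0.163) and Mfsd12 (−0.166) did not pass. They were named after their values were seen. Slc36a1 encodes PAT1, a proton-coupled exporter of small amino acids from the lysosome (ENSMUSG00000020261, chromosome 11, 55204350 to 55236330, GRCm38). Its level was 6.51, 5.50 and 6.27 FPKM in Gel/S 1 to 3 and 8.17, 7.70 and 7.61 FPKM in C/D 1 to 3. Each C/D library was above each Gel/S library, at a log2 fold change equal to 0.41 (SE 0.0949, edgeR adjusted p = 0.00965). The call was lost with limma on log2(TPM + 1) (0.26, adjusted p = 0.166), a scaling under which the median of all tested genes was −0.12.

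Slc38a9 encodes the arginine-sensing carrier that passes amino acid signals from the lysosome to mTORC1 (ENSMUSG00000047789, chromosome 13, 112660751 to 112738749, GRCm38). Its level was 1.98, 1.93 and 1.98 FPKM in Gel/S 1 to 3 and 2.49, 2.42 and 2.33 FPKM in C/D 1 to 3. The groups were apart and each was narrow, and the log2 fold change was 0.34 (SE 0.0879, edgeR adjusted p = 0.0157). This was the least firm call: it was lost in 7 of 14 alternatives, among them those without Gel/S 3 (adjusted p = 0.0617), without C/D 1 (adjusted p = 0.0571), without C/D 2 (adjusted p = 0.0634), with no filter on low values (adjusted p = 0.0684) and with limma on log2(FPKM + 1) (log2 fold change 0.20, adjusted p = 0.12). The antisense entry Gm47827 overlaps it, with 91 counts in all of Gel/S and 119 in all of C/D (means of 4.61 and 6.61 FPKM). Slc38a9 itself had 529, 521 and 515 counts in Gel/S 1 to 3 and 541, 651 and 585 in C/D 1 to 3. If counting did not use the strand, reads of the shared stretch cannot be told apart. The part of this in the rise was not tested.

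Slc38a7, a further lysosomal carrier that exports glutamine and asparagine, did not pass, with 6.45 ± 0.466 FPKM in Gel/S and 6.45 ± 0.485 FPKM in C/D (log2 fold change 0.04, edgeR adjusted p = 0.776) and a sign that turned on TPM (−0.09). Slc36a4, which encodes the high-affinity carrier PAT4, had 14.6, 10.6 and 11.7 FPKM in Gel/S 1 to 3 and 11.6, 11.1 and 11.9 FPKM in C/D 1 to 3. Gel/S 1 was above the other 5 libraries, which overlapped, and the log2 fold change was −0.04 (SE 0.107, edgeR adjusted p = 0.78) and 0.09 without Gel/S 1. Slc36a2 and Slc36a3 had 2 and 14 counts in all.

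The promoters of Slc36a1, which rose, and of Slc7a1, which fell, are shown for 2 further short motifs. CACGTG, the E-box core, is bound by TFEB and TFE3, regulators of lysosomal genes, and also by MYC. TGACNNNGC is the core of the antioxidant response element bound by NRF2, known from glutathione genes. Both windows span 250 bases before to 50 after a RefSeq start (GRCm38.p6; chr11:55204090-55204389, plus strand, for Slc36a1 and chr5:148399855-148400154, minus strand, for Slc7a1), with matches on either strand in capitals.
Slc36a1 promoter: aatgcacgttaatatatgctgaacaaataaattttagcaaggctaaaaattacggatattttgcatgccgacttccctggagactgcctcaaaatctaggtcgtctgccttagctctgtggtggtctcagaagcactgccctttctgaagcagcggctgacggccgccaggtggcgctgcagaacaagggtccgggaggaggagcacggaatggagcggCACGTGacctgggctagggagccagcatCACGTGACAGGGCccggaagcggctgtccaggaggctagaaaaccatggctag
Slc7a1 promoter: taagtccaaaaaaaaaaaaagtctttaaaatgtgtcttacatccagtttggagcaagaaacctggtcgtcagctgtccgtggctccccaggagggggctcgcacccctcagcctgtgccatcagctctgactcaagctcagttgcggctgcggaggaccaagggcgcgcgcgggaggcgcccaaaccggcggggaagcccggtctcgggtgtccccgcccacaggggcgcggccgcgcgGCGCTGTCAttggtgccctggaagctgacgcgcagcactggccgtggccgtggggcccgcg

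In the Slc36a1 window CACGTG begins 31 and 3 bases before the start, and the second copy overlaps a TGACNNNGC match, so that they form a single run of capitals. CACGTG occurs in 7.15% of all windows and, among tested members, in those of Slc36a1 and Slc38a7. In the Slc7a1 window shown, a TGACNNNGC match on the other strand begins 11 bases before the start. That motif occurs in 12.4% of all windows and in those of 4 tested members, Slc36a1, Slc7a1, Slc7a6 and Slc38a2. Of the 7 members called, 5 had a window, and those of Slc38a9, Slc38a10 and Slc7a8 held none of the 3 motifs, which says only that these letters are not in them. The matches are descriptions and were not related to the changes by a test.

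Among the other SLC38 genes, Slc38a10 fell, and Slc38a1, Slc38a2 and Slc38a6 did not pass. Slc38a2 encodes SNAT2, a sodium-coupled importer of glutamine and alanine that is induced by amino acid shortage. Its level was 38.1, 36.4 and 37.0 FPKM in Gel/S 1 to 3 and 34.28, 35.98 and 36.28 FPKM in C/D 1 to 3. The FPKM groups came close without overlapping, and the log2 fold change was −0.02 (SE 0.0825, edgeR adjusted p = 0.857). Slc38a1, which encodes the related SNAT1, had 9.29, 7.44 and 7.55 FPKM in Gel/S 1 to 3 and 6.37, 6.91 and 6.91 FPKM in C/D 1 to 3. Every C/D library was lower, but the log2 fold change of −0.22 did not pass (SE 0.0958, edgeR adjusted p = 0.102), and it passed without Gel/S 2 (−0.27, adjusted p = 0.0452).

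Slc38a10, a less studied member that has been linked to glutamate and glutamine transport, was lower in C/D (ENSMUSG00000061306, chromosome 11, 120103960 to 120151346, GRCm38). Its level was 26.1, 22.7 and 24.3 FPKM in Gel/S 1 to 3 and 18.1, 18.3 and 18.0 FPKM in C/D 1 to 3. The C/D libraries were nearly equal and all were lower than Gel/S, at a log2 fold change equal to −0.39 (SE 0.0819, edgeR adjusted p = 0.00596), and the call held in all 14 alternatives. Slc38a6 had 4.35 ± 0.120 FPKM in Gel/S and 4.28 ± 0.157 FPKM in C/D (log2 fold change 0.02, edgeR adjusted p = 0.902), with a sign that turned in 7 of 14 alternatives. Of the other SLC38 genes, Slc38a5 had 1 count, and Slc38a3, Slc38a4, Slc38a8 and Slc38a11 had none.

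In SLC43, Slc43a2 and Slc43a3 were tested and neither passed. Slc43a2 encodes LAT4, a facilitative carrier of leucine, phenylalanine and methionine. Its level was 28.2, 19.1 and 21.8 FPKM in Gel/S 1 to 3 and 29.8, 27.0 and 25.5 FPKM in C/D 1 to 3. Gel/S 1 lay among the C/D libraries while Gel/S 2 and 3 were lower, and the log2 fold change was 0.30 (SE 0.127, edgeR adjusted p = 0.101). Without Gel/S 1 it was 0.46 (adjusted p = 0.00192). Slc43a3, whose product is known as a purine nucleobase carrier, had 5.85 ± 0.451 FPKM in Gel/S and 4.59 ± 0.371 FPKM in C/D without overlap, and its log2 fold change of −0.31 just missed the threshold (SE 0.110, edgeR adjusted p = 0.0576). It passed in 3 of 14 alternatives: with no filter on low values (adjusted p = 0.0371), with the filter filterByExpr (adjusted p = 0.0427) and with limma on log2(FPKM + 0.1) (adjusted p = 0.0487). Slc43a1, which encodes LAT3, had no count.

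**Figure D4:**
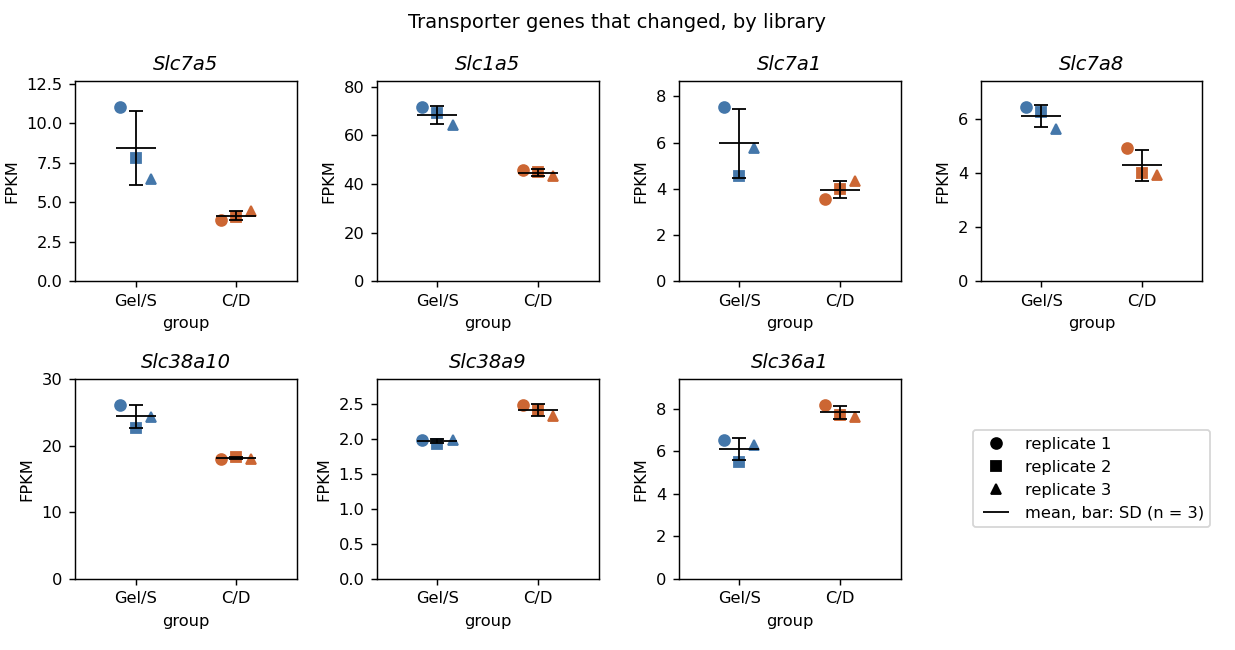
FPKM (y axis, from 0) in each library of Gel/S and C/D (x axis) for the 7 genes that passed the test, with one marker shape per replicate number and the mean ± SD of n = 3 in black. The groups do not overlap in any panel, and replicate 1 is the highest Gel/S library of Slc7a5 (11.02 FPKM) and of Slc7a1 (7.53 FPKM).

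Of the 23 members under 1 FPKM, 14 had no count in any library and 9 had between 1 and 74 counts in all. No comparison was made for them in the fit above.

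Other amino acid carriers, taken from families outside the 6, had 16 tested genes of 32, of which 3 fell, none rose and 13 did not pass (median log2 fold change −0.07). Slc16a10, a carrier of aromatic amino acids, went from 11.2 ± 1.03 to 7.28 ± 0.418 FPKM (log2 fold change −0.58, edgeR adjusted p = 0.00131). Slc15a3, a lysosomal carrier of histidine and peptides, went from 19.6 ± 2.11 to 12.7 ± 0.856 FPKM (log2 fold change −0.58, edgeR adjusted p = 0.00159). Slc25a13, the aspartate and glutamate carrier of mitochondria, fell by 0.48 on the log2 scale, and its relative Slc25a12 (−0.27, edgeR adjusted p = 0.0681) did not pass. The called share was 18.8%, beside 27.0% of all tested genes.

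In the list of ATF4 and those of its targets that are not carriers, 3 of 22 tested genes rose, 2 fell and 17 did not pass (22.7% called, median log2 fold change −0.05). The called share was below the 27.0% of all tested genes. ATF4 is the transcription factor of the amino acid response. Cebpg, a dimer partner of ATF4, rose (0.54), as did Pck2, the mitochondrial enzyme that makes phosphoenolpyruvate (0.38), and Ddit4, an inhibitor of mTORC1 (0.43). Psat1, an enzyme of serine synthesis, fell (−0.69, edgeR adjusted p = 0.00111), as did the mitochondrial folate enzyme Mthfd2 (−0.60, edgeR adjusted p = 0.00155). Atf4 itself was 85.9 ± 13.2 FPKM in Gel/S and 73.9 ± 5.33 FPKM in C/D (log2 fold change −0.17, edgeR adjusted p = 0.284), and Asns, which makes asparagine, had a log2 fold change of −0.01 (edgeR adjusted p = 0.935). Ddit4, Atf4 and Asns were named after their values were seen.

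In the list of amino acid sensing by mTORC1, 4 of 33 tested genes rose, 3 fell and 26 did not pass (21.2% called, median log2 fold change 0.05). That share was also below the 27.0% of all tested genes. Lamtor1 and Lamtor2, subunits of the Ragulator that anchors the complex to lysosomes, changed in opposite directions. Lamtor2 rose from 114 ± 15.8 to 169 ± 11.5 FPKM (0.61, edgeR adjusted p = 0.00314), and Lamtor1 fell from 29.7 ± 0.748 to 22.5 ± 0.177 FPKM (−0.36, edgeR adjusted p = 0.00677). Flcn, which acts on the GTPases RagC and RagD, rose (0.35), and Bmt2, which encodes the methionine sensor SAMTOR, fell (−0.43). The further calls, named after their values were seen, were the mTOR partner Mlst8 (0.54) and the GATOR1 subunit Nprl2 (0.42), which rose, and Rragc (−0.31), which fell.

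In the list of glutathione synthesis and use, which draws on the cystine that Slc7a11 imports, 4 of 14 tested genes rose, 3 fell and 7 did not pass (50% called, median log2 fold change 0.07). Of all tested genes 27.0% were called, 13.1% as risen and 13.9% as fallen. Gclm, the modifier subunit of the rate-limiting enzyme, rose from 7.64 ± 0.747 to 10.7 ± 0.6 FPKM (0.53, edgeR adjusted p = 0.00327), and Gsto1, a glutathione transferase, also rose (0.52). Gclc, the catalytic subunit of that enzyme (−0.058, edgeR adjusted p = 0.635), and Gss (0.148, edgeR adjusted p = 0.261) did not pass. Both were named after their values were seen. The reductases Txnrd1 (−0.63) and Gsr (−0.56) fell. Ggct (0.45) and Chac2 (0.43), both enzymes that break down glutathione or its fragments, rose, and Nfe2l2 (−0.33), which encodes NRF2, fell; these 3 were named after their values were seen.

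In the list of glutamine, arginine and branched-chain amino acid enzymes, 8 of 21 tested genes fell, 2 rose and 11 did not pass (47.6% called, median log2 fold change −0.20, against 0.01 for all tested genes). The called share of all tested genes was 27.0%, with 13.9% fallen and 13.1% risen. Those that fell included Bcat1, which transfers the amino group of leucine in the cytosol (5.20 ± 0.540 to 3.13 ± 0.0210 FPKM, log2 fold change −0.69, edgeR adjusted p = 0.000737), and Dbt, a subunit of the complex that oxidises branched-chain keto acids (8.66 ± 1.38 to 4.62 ± 0.865 FPKM, log2 fold change −0.86, edgeR adjusted p = 0.00262). Bckdk (−0.46), the kinase that holds that complex inactive, also fell. Sat1, which acetylates polyamines, rose (0.53, edgeR adjusted p = 0.00404), and Odc1, which makes the polyamine precursor putrescine from ornithine, fell (−0.78, edgeR adjusted p = 0.00627). The other falls were Got2, Glud1, Bckdhb and Oat, and the other rise was Kmo. Nos2, which makes nitric oxide from arginine, was 1.46 ± 0.0863 FPKM in Gel/S and 2 ± 0.805 FPKM in C/D and did not pass (0.49, edgeR adjusted p = 0.154). Odc1, Nos2, Got2, Glud1, Bckdhb, Oat and Kmo were named after their values were seen.

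**Figure D5:**
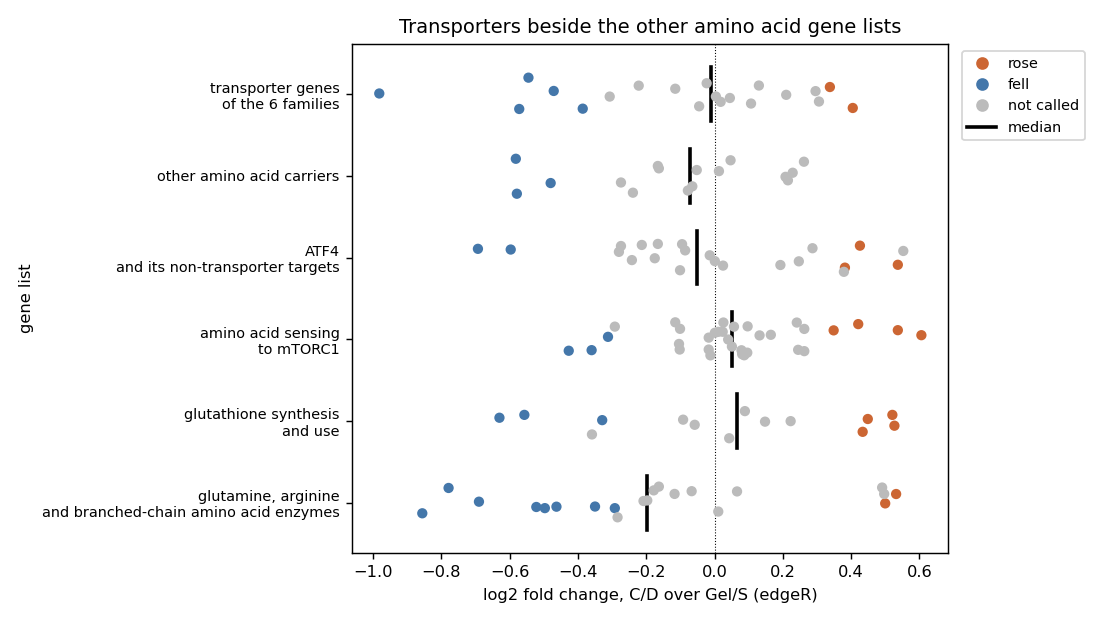
Log2 fold change in C/D over Gel/S (x axis) of each tested gene in the 6 carrier families and in the 5 further amino acid lists (y axis), coloured by whether it passed the test, with black bars for list medians. The enzyme list has the lowest median at −0.20, and the carriers spread to both sides of 0.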

How the data were processed

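RNA-seq of RAW264.7 cells was analysed from 1 deposited table with 6 libraries, 3 per group. It holds raw counts per gene and FPKM made by the authors, per the file headers. The submitters' processing notes name GRCm38 (mm10) as the genome build. The sources used here do not give the aligner, the counter, its strand setting or the scaling behind FPKM. The authors' comparison is deposited as group means (a signal, counts scaled for library size), log2 fold changes and p-values, per the file headers, with no tool named.

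The members and the gene lists were chosen with earlier results of these data known. Date-like symbols (27) were restored. Genes with a mean of at least 1 FPKM were fitted with edgeR 4.0.16 in R 4.3.3 (TMM, quasi-likelihood, adjusted p under 0.05), after a check on simulated data. That check called 32% of genes changed 1.3-fold, 62% of those changed 1.5-fold and 92% of those changed 2-fold. A gene that did not pass is therefore not shown to be unchanged. Libraries held 12818831 to 16525699 counts, and the smallest count of a tested member was 105. All tested members were named, those called or among the 10 highest with every library's value, and up to 4 tested genes of smallest adjusted p per list. Alternatives were DESeq2 1.42.0, RLE factors, other filters, limma 3.58.1 on log2(FPKM + 1), log2(FPKM + 0.1) and log2(TPM + 1), each library left out and a replicate block. Summed FPKM without each library and on TPM were added after seeing the data. Promoter windows are RefSeq's (GRCm38.p6), matched by symbol for 15 of 20 tested members; the motifs were chosen with results known.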

Additional observations from a re-analysis of the deposited data

How the results depend on the processing

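Slc1a5, Slc7a5 and Slc38a10 were called in each of the 14 alternative fits. The count of risen members was 1 with no filter on low values, with limma on log2(FPKM + 1) and on log2(FPKM + 0.1), 0 on log2(TPM + 1), and 1 to 4 with 1 library left out; that of fallen members was 3 to 6. Over all tested genes 1532 rose and 1631 fell. The risen count was 1020, 1008 and 633 in the 3 limma fits and 887 to 1989 with 1 library left out, and the fallen count 876 to 2089. The causes of these shifts were not tested.

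In the lists, counts with 1 library left out ran from 0 to 1 risen and 3 to 5 fallen for other carriers, 2 to 5 and 2 to 5 for ATF4, 1 to 6 and 2 to 4 for amino acid sensing, 2 to 5 and 2 to 3 for glutathione, and 1 to 2 and 5 to 9 for the enzymes. With no filter, 5 other carriers and 5 ATF4 genes fell, and with filterByExpr 4 ATF4 genes fell. On TPM 1 ATF4 gene rose and 5 fell, 1 sensing gene and 2 glutathione genes rose, and 1 enzyme rose, as in both limma fits on FPKM and with the replicate block.

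Signs turned for members that were not called. On TPM the log2 fold change was −0.025 for Slc3a2, −0.122 for Slc7a6, −0.085 for Slc38a7 and −0.106 for Slc38a6. For Slc7a6 it was −0.044 with no filter, −0.026 with filterByExpr, −0.032 on log2(FPKM + 1) and −0.034 on log2(FPKM + 0.1). For Slc38a6 it was −0.03, −0.011, −0.02 and −0.024 in these same fits, and for Slc38a7 −0.003 with no filter. With 1 library left out, values ran from −0.043 to 0.09 for Slc7a6, −0.136 to 0.087 for Slc36a4 and −0.008 to 0.048 for Slc38a6.

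Libraries of the same replicate number did not deviate together (correlations −0.057, −0.059 and 0.045), so the numbers are not read as pairs. With the replicate block 2 members rose and 5 fell, and 1242 and 1302 of all tested genes.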
